A study of Homo sapiens with 4 samples.

Results

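Described here are 8 transcription factors of the pancreatic lineage and of the SOX family in PANC-1, a human cell line from pancreatic ductal adenocarcinoma (PDAC), and in PZT-2, a clone of PANC-1 with a stable knockdown of the histone variant H2A.Z. The 8 genes, PDX1, GATA6, HNF4A, FOXA2, KLF5, SOX2, SOX4 and SOX9, were chosen by name, and the estimated counts of their transcripts were added up for each gene and library. Values were listed for 6 of the 8, among 15220 genes with values in all. mRNA was sequenced in 4 libraries, 2 of PANC-1 that had not been transduced and 2 of PZT-2. PZT-2 carries lentiviral shRNAs, driven by a U6 promoter and selected with puromycin, against the transcripts of both H2A.Z genes. It is 1 clone compared with an untransduced parent. The effects of the knockdown, of the transduction and of the choice of a single clone therefore cannot be told apart. The authors grew PANC-1 in medium with serum and name no further treatment of the sequenced cells. They do not say whether puromycin was still present when PZT-2 was sampled. Libraries of cells with a scrambled shRNA were not analysed here.

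These factors act in layers during the formation of the pancreas. PDX1 marks the pancreatic bud and later the beta cell, and GATA6 and FOXA2 open chromatin in endoderm. HNF4A drives genes of gut, liver and pancreatic epithelium, and KLF5 is a zinc finger factor of epithelial cells. SOX9 maintains pancreatic progenitors and stays on in ducts. SOX4 is known as a target of TGF-beta signalling whose effect in PDAC cells depends on KLF5, and SOX2 is a factor of stem cells and of foregut. In PDAC, high GATA6 and HNF4A are known as marks of the classical subtype and their loss as a mark of the basal-like subtype. H2A.Z itself sits in the nucleosomes beside active and poised start sites.

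The 4 libraries held 12861327 and 15717459 estimated counts for PANC-1 and 13955426 and 14175564 for PZT-2. H2AFZ, the gene of H2A.Z.1 and 1 of the 2 genes targeted, had 6389 and 6034 normalized counts in PANC-1 and 2212 and 2259 in PZT-2, and H2AFV, the gene of H2A.Z.2, had 3343 and 3452 in PANC-1 and 2589.8 and 2719 in PZT-2. Both were lower in PZT-2, by log2 1.47 ± 0.057 (SE) and log2 0.36 ± 0.057, with adjusted p = 6.26e-05 and 0.00573 in edgeR's quasi-likelihood test over all genes, and H2AFV lost its call without PZT-2 replicate 1 (0.0600). A normalized count is a count divided by the effective size of its library and brought to the mean library. Of the markers of ductal epithelium, 8 of 10 had values, and CFTR and SLC4A4 had none. KRT8, KRT18 and KRT19 stood at 12384 normalized counts or more in each library. Other ductal markers were far lower, with means in PANC-1 and PZT-2 of 128 and 106 for KRT7. EPCAM had means of 104 and 91.9, and CA2 of 5.42 and 4.98. No values were listed for 10 of 12 acinar and 7 of 10 endocrine markers.

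Of the 8 factors, 6 were tested. Of these 4 (66.7%) passed the threshold of 0.05 on the adjusted p, against 28.4% of the 15100 genes tested. GATA6, SOX4 and FOXA2 were lower in PZT-2 and SOX9 was higher, PDX1 and KLF5 did not pass, and HNF4A and SOX2 had no values. Genes lower in PZT-2 made up 13.7% of all genes tested and genes higher made up 14.7%. The median log2 fold change was -0.39 over the 6 factors with values and 0.0012 over all genes tested. For 5 of the 6 the libraries of PANC-1 and PZT-2 did not overlap, as was so for 66.3% of all genes, so that the absence of overlap sets these factors little apart. GATA6 alone lay outside the range from the 5th to the 95th percentile of all log2 fold changes, which ran from -0.92 to 0.99.

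**Figure D1:**
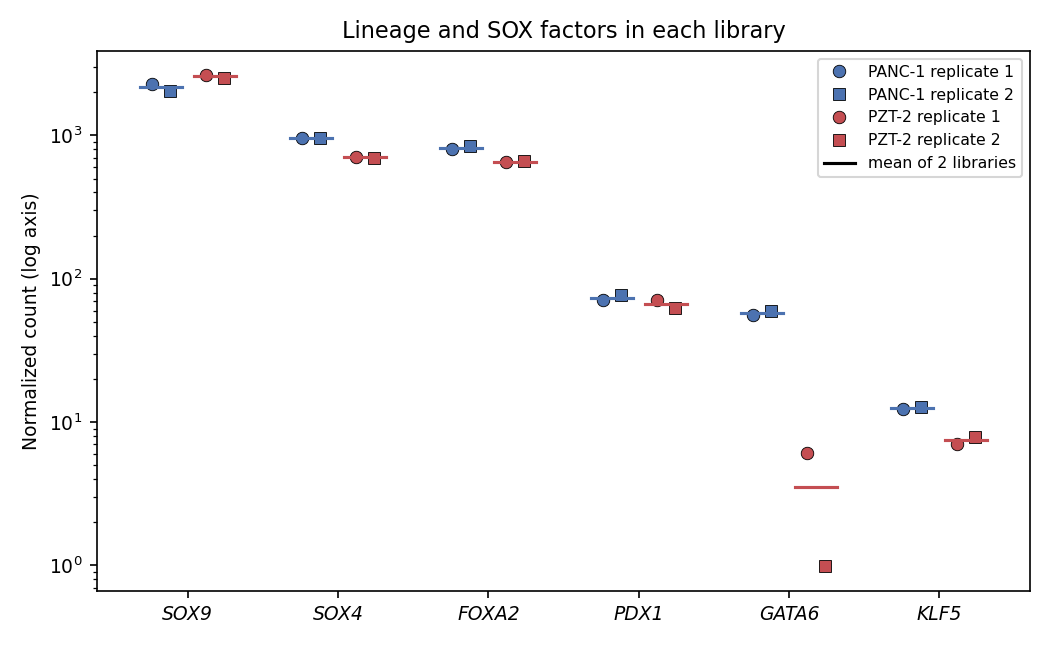
Normalized counts (log axis) of the 6 factors with values in each of the 4 libraries, with circles for replicate 1, squares for replicate 2, and a line at the mean of the 2 libraries of PANC-1 (blue) or PZT-2 (red). GATA6 stood at 56.3 and 59.6 in PANC-1 and at 6.04 and 0.989 in PZT-2, a wider gap than that of any of the other 5 factors.

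Levels of different genes are compared here per length, as TPM, the share of a gene among all transcripts once counts are divided by length. In PANC-1 the order was SOX9 with 70.9 ± 3.82 TPM (SD, n = 2), FOXA2 with 45.2 ± 2.29, SOX4 with 25.1 ± 0.42, PDX1 with 3.82 ± 0.30, GATA6 with 1.99 ± 0.12 and KLF5 with 0.507 ± 0.089. By TPM in PANC-1, SOX9 ranked 2327 and GATA6 ranked 11609 of the 15100 genes tested. In PZT-2 the first 4 kept this order, with 87.8 ± 2.67 TPM for SOX9, 37.3 ± 0.19 for FOXA2, 19.1 ± 0.26 for SOX4 and 3.59 ± 0.36 for PDX1, and KLF5 at 0.289 ± 0.014 TPM then stood above GATA6 at 0.126 ± 0.13. Neighbours in each order did not overlap between their libraries, but the last step in PZT-2 rests on 15 counts of KLF5 and 7 of GATA6 over both libraries. In both lines the highest levels among these factors were those of SOX9, FOXA2 and SOX4, and PDX1, GATA6 and KLF5 stood far lower.

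GATA6, a zinc finger factor of endoderm, fell furthest of the 6 with values. It had 50 and 66 estimated counts in the PANC-1 libraries and 6 and 1 in the PZT-2 libraries, or 56.3, 59.6, 6.04 and 0.989 normalized counts. Both PZT-2 libraries lay far below both PANC-1 libraries, and they also differed from each other in proportion more than the PANC-1 libraries did. From the summed counts, 116 against 7, PZT-2 kept 6.01% of the PANC-1 level, with a 95% interval of 2.36 to 12.8% (exact Clopper-Pearson, counting error only). The fitted log2 fold change was -4.00 ± 0.55 (SE), with adjusted p = 0.00344 in edgeR. It kept its call without any 1 library, with log2 -5.71 when PZT-2 replicate 1 was left out and -3.24 when replicate 2 of that clone was left out, so its direction did not rest on 1 library while its size did.

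Of the 4 other GATA genes measured, 2 were lower as well, against 13.7% of all genes tested. GATA3 fell about as far as GATA6, and GATA5 by much less. GATA3, known from T cells, breast and urothelial epithelium, had 43.9 and 46.1 normalized counts in PANC-1 and 5.03 and 0.989 in PZT-2. It was at 6.64% of the PANC-1 level from its summed counts (95% interval 2.37 to 15.0%), with log2 -3.85 ± 0.55 and adjusted p = 0.00396 in edgeR, and it gave log2 -5.34 when PZT-2 replicate 1 was left out and -3.13 when replicate 2 was. Its level and its fall were thus close to those of GATA6 in each of the 4 libraries.

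GATA5, a factor of endoderm and heart, was the most highly counted of the family, with 1157 and 1203 normalized counts in PANC-1 and 846 and 815 in PZT-2, and was lower by log2 0.51 ± 0.065 (adjusted p = 0.00272, edgeR). GATA2, a factor of blood stem cells and endothelium, went the other way with 467 and 609 in PANC-1 and 759.9 and 816 in PZT-2, log2 0.54 ± 0.13 and adjusted p = 0.0222, which it lost without PZT-2 replicate 1 (0.0600) or 2 (0.112). GATA2 lies on chromosome 3, where the median log2 fold change over 836 genes was 0.43 and 48.2% of them were higher in PZT-2. GATA4, the other GATA factor of pancreas and gut, had 362 and 326 in PANC-1 and 402 and 381 in PZT-2, log2 0.19 ± 0.097, and did not pass (adjusted p = 0.203). The GATA genes therefore moved in both directions, and the large falls were those of the pair with the lowest counts in PANC-1.

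**Figure D2:**
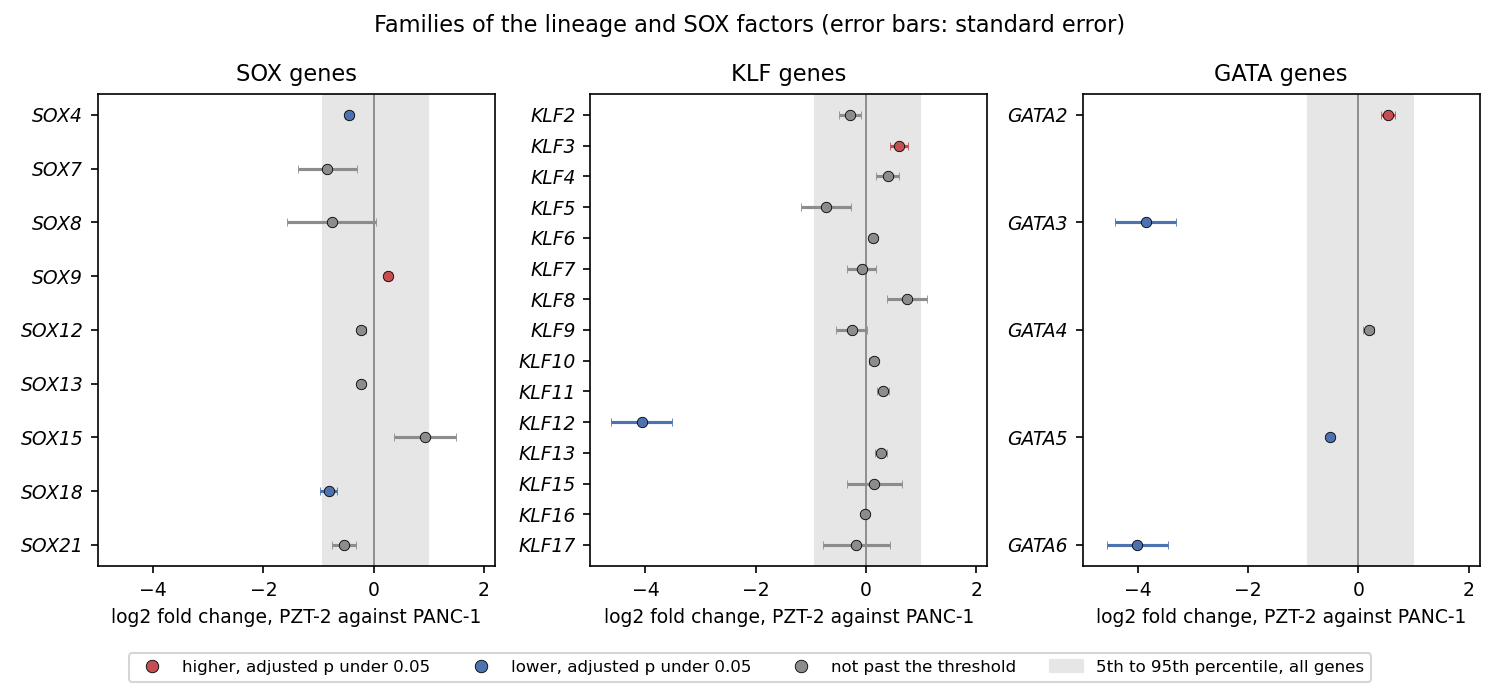
Log2 fold change (PZT-2 over PANC-1), with its standard error, of the tested genes of the SOX, KLF and GATA families, coloured by direction where the adjusted p was under 0.05, over the grey range from the 5th to the 95th percentile of all genes tested. GATA6 (-4.00), GATA3 (-3.85) and KLF12 (-4.06) stand to the left of that range, and no other gene called in these families does.

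FOXA2, the forkhead factor that opens chromatin of endodermal genes, had 806 and 839.5 normalized counts in PANC-1 and 649 and 658 in PZT-2. The libraries of each line lay close together and both PZT-2 values were the lower. The log2 fold change was -0.33 ± 0.069 (adjusted p = 0.0145, edgeR), so that PZT-2 kept 79.4% of the PANC-1 level, and the call was lost without PZT-2 replicate 1 (adjusted p = 0.0820) or 2 (0.0838). Its values came from 1 transcript, NM_021784, and the other of the 2 named for FOXA2, NM_153675, had none.

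The noncoding RNA LINC00261, which is the last tested gene before FOXA2 in the order of the chromosome, was lower as well. It had 139.5 and 169 normalized counts in PANC-1 and 93.6 and 80.1 in PZT-2, log2 -0.83 ± 0.17 and adjusted p = 0.0133, and it lost its call without PZT-2 replicate 2 (adjusted p = 0.0908) and in limma-trend with a pseudocount of 0.1 TPM (0.0525). THBD, the thrombomodulin gene and the first tested gene on the other side of FOXA2, rose from 142 ± 36.1 to 611 ± 45.3 normalized counts (SD, n = 2 libraries each), log2 2.12 ± 0.16 and adjusted p = 0.000521. Of the 10 tested neighbours of FOXA2, 3 were higher and 1 was lower. Over the 418 tested genes of chromosome 20, where FOXA2 lies, 15.6% were higher and 12.2% lower.

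PDX1, the homeodomain factor of the pancreatic bud and of beta cells, had 70.9 and 76.8 normalized counts in PANC-1 and 71.5 and 62.3 in PZT-2. The groups overlapped, since the first PZT-2 library lay between the PANC-1 libraries. The log2 fold change was -0.15 ± 0.19 (adjusted p = 0.618, edgeR) and lay between -0.25 and -0.05 over 13 other settings, none of which called it. PLUT, the antisense RNA beside PDX1, had between 4.03 and 9.89 normalized counts in the 4 libraries and did not pass (adjusted p = 0.837).

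KLF5 was the lowest of the 6 in PANC-1, with 11 and 14 estimated counts against 7 and 8 in PZT-2. Its normalized counts were 12.4 and 12.7 in PANC-1 and 7.05 and 7.91 in PZT-2. Both PZT-2 libraries were the lower, but at this depth the ratio of the summed counts was 59.7% of PANC-1 with a 95% interval of 29.3 to 118% (counting error only), which holds both a fall and no change. The fitted value was log2 -0.73 ± 0.45 with adjusted p = 0.280. The counts of KLF5 went to NM_001730 in PANC-1 replicate 1 (11 against 0 for NM_001286818) and to NM_001286818 in PANC-1 replicate 2 (14 against 0), so the split between its 2 transcripts was not stable between libraries of 1 line and no isoform of KLF5 is described.

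Of the 16 other KLF genes asked for, 14 were tested, and 1 was lower, 1 was higher and 12 did not pass. Their median log2 fold change was 0.13, and 14.3% were called, against 28.4% of all genes tested. The one that was lower, KLF12, a repressor of the same zinc finger family, had 82.1 and 72.3 normalized counts in PANC-1 and 8.05 and 0.989 in PZT-2. It stood at 5.85% of the PANC-1 level (95% interval 2.63 to 11.4%) with log2 -4.06 ± 0.55 and adjusted p = 0.00324, and gave log2 -6.12 when PZT-2 replicate 1 was left out and -3.24 when replicate 2 was. KLF12 is the next tested gene after KLF5 on chromosome 13, and the one after it, TBC1D4, a regulator of glucose transporter traffic, was lower too (98.1 ± 8.24 to 36.9 ± 4.69, log2 -1.41 ± 0.21, adjusted p = 0.00431). Over all 258 tested genes of chromosome 13 the median log2 fold change was -0.02.

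KLF3, a repressor known from blood and fat cells, was the KLF gene that was higher, with 243 and 169.9 normalized counts in PANC-1 and 313 and 308 in PZT-2, log2 0.60 ± 0.17 and adjusted p = 0.0413. Its call was lost without PANC-1 replicate 2 (0.0714), PZT-2 replicate 1 (0.140) or 2 (0.143), and also with DESeq2 (0.0661), with limma-trend at either pseudocount (0.0619 and 0.0662) and on the counts as deposited (0.0551). KLF5 itself was thus 1 of 13 among 15 tested KLF genes that did not pass.

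HNF4A, the nuclear receptor of the classical PDAC and liver programme, was counted as not detected. The comparison table named 10 transcripts for it and none had values in the table of the libraries, in which each listed transcript reached at least 5 counts in 1 library or more. No upper limit is given for a gene that is not listed. Of 18 genes known as HNF4A targets, 17 had no values either, the apolipoproteins, fibrinogen chains and albumin among them. SERPINA1, the alpha-1-antitrypsin gene, had 13.5 and 3.61 normalized counts in PANC-1 and 28.2 and 53.4 in PZT-2, log2 2.30 ± 0.62 and adjusted p = 0.0345, and lost its call without PZT-2 replicate 2 (0.170) and in limma-trend with a pseudocount of 0.1 TPM (0.0514). Its log2 fold change was 3.45 without PANC-1 replicate 1 and 1.58 without PANC-1 replicate 2.

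SOX9, the SOX factor of pancreatic progenitors and ducts, had the highest level of the 6 with values. It had 2277 and 2049.6 normalized counts in PANC-1 and 2626 and 2531 in PZT-2, or 2164 ± 161 and 2578 ± 67.4 (SD, n = 2 each). Both PZT-2 libraries were above both PANC-1 libraries. The log2 fold change was 0.25 ± 0.070 with adjusted p = 0.0373, and the call was lost without PANC-1 replicate 2 (0.0569), PZT-2 replicate 1 (0.193) or 2 (0.134). The direction was kept in each of 13 other settings, 10 of which called it.

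SOX9-AS1, the noncoding gene beside SOX9 on the opposite strand, rose with a larger fold at a much lower level. It had 10.1 and 8.13 normalized counts in PANC-1 and 26.2 and 28.7 in PZT-2, log2 1.58 ± 0.38 and adjusted p = 0.0243. From its summed counts, 18 against 55, it was at 3.04 times the PANC-1 level (95% interval 1.76 to 5.50, counting error only). Its call was lost without PANC-1 replicate 2 (adjusted p = 0.0628), PZT-2 replicate 1 (0.0746) or 2 (0.103) and with DESeq2 (0.134). The sources used here do not say whether the strand of a read was used in counting, so where the 2 genes overlap their reads may not be fully told apart.

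LINC00673, a noncoding gene and the first tested gene on the other side of SOX9, went the other way, from 849 ± 49.7 to 626 ± 24.6 normalized counts (log2 -0.44 ± 0.078, adjusted p = 0.00846), and lost its call without PZT-2 replicate 1 (0.0575).

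**Figure D3:**
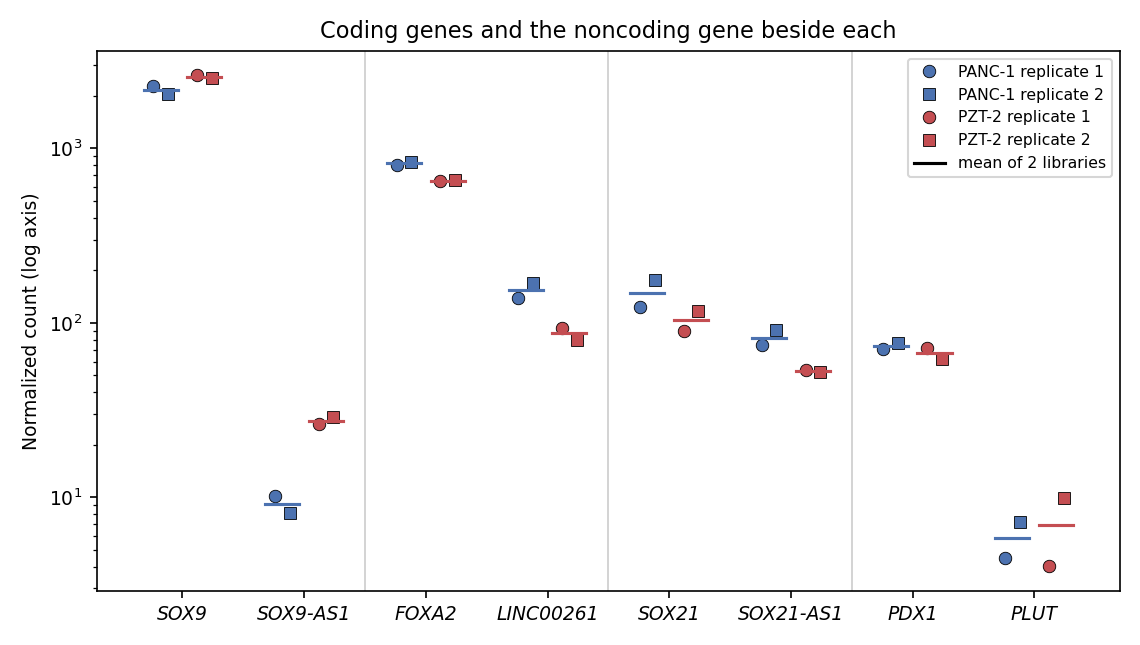
Normalized counts (log axis) in each library of SOX9, FOXA2, SOX21 and PDX1, each beside the noncoding gene next to it, with circles for replicate 1, squares for replicate 2, and lines at the means of PANC-1 (blue) and PZT-2 (red). SOX9-AS1 was higher in PZT-2 (26.2 and 28.7 against 10.1 and 8.13) and LINC00261 lower (93.6 and 80.1 against 139.5 and 169), each in the direction of its coding neighbour, and PLUT overlapped between the lines.

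SOX4, a SOX factor of the group that acts with TGF-beta signals, was lower in PZT-2, with close agreement between replicates. It had 959 and 954 normalized counts in PANC-1 and 707 and 697 in PZT-2. Within each line the libraries were nearly equal and the lines were well apart. The log2 fold change was -0.45 ± 0.065 (adjusted p = 0.00415, edgeR), so that PZT-2 kept 73.4% of the PANC-1 level, and the call held without any 1 library, with adjusted p between 0.00253 and 0.0425. The long noncoding gene CASC15 after SOX4 had 5.93 to 8.13 normalized counts in the 4 libraries and did not pass. None of the 10 tested neighbours of SOX4 passed, where 11.1% of the tested genes of chromosome 6 were higher and 12.3% lower.

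Of the TGF-beta genes around SOX4, 14 of 15 were tested, and 2 were higher, 1 was lower and 11 did not pass. The share called was 21.4%, against 28.4% of all genes tested. TGFBR2, the type II receptor, was higher, with 1234 and 1284 normalized counts in PANC-1 and 1775 and 1744 in PZT-2 (log2 0.48 ± 0.060, adjusted p = 0.00237). It lies on chromosome 3. SNAI1, a repressor of epithelial genes, was higher with 212 and 189.8 against 341 and 268 (log2 0.60 ± 0.15, adjusted p = 0.0250), which it lost without PZT-2 replicate 1 (0.133). CDH1, the E-cadherin gene that SNAI1 is known to repress, was lower with 116 and 148 in PANC-1 and 0 and 18.8 in PZT-2 (adjusted p = 0.0103), at 7.08% of the PANC-1 level from its summed counts (95% interval 4.20 to 11.3%, counting error only). It gave log2 -2.81 when PZT-2 replicate 1 was left out and -10.05 when replicate 2 was, so its size rested on single libraries, and DESeq2 did not call it (adjusted p = 0.263). The receptor TGFBR1 and SMAD2, SMAD3 and SMAD4, which carry the signal, did not pass.

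SOX2 was counted as not detected, since its 1 transcript had no values in the table of the libraries. Of 10 genes of pluripotent cells, 5 were tested and 1 passed (20%, against 28.4% of all genes tested). That was LIN28B, a blocker of let-7 maturation, with 75.4 and 67.8 normalized counts in PANC-1 and 24.2 and 23.7 in PZT-2 (log2 -1.57 ± 0.24, adjusted p = 0.00459). SOX2 lies on chromosome 3, and of its 10 tested neighbours 5 were higher in PZT-2 and 1 was lower. Over the 836 tested genes of that chromosome 48.2% were higher and 2.51% lower, so the neighbours higher were near the share of the chromosome.

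Of the 16 other SOX genes, 7 were tested, and 1 was lower, none was higher and 6 did not pass. The median log2 fold change over the 7 was -0.54, and 14.3% were called, against 28.4% of all genes tested. SOX18, a factor of vessels, had 145 and 140.1 normalized counts in PANC-1 and 77.5 and 84.1 in PZT-2 (log2 -0.82 ± 0.15, adjusted p = 0.00836), and lost its call without PZT-2 replicate 1 (0.0566). SOX12, which belongs to one group with SOX4, had 1411 and 1220.0 in PANC-1 and 1150.4 and 1099.7 in PZT-2 (log2 -0.22 ± 0.085, adjusted p = 0.0976), so its libraries did not overlap and it did not pass. SOX13 (log2 -0.23 ± 0.080, adjusted p = 0.0773) and SOX21 (log2 -0.54 ± 0.22, adjusted p = 0.120) did not pass either. SOX9 was therefore the one of the 9 tested SOX genes called higher.

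Sequence before the start site is shown for 4 of the factors, 2 that fell (GATA6 and SOX4), 1 that did not pass (KLF5) and 1 without values (SOX2), since start sites are where H2A.Z is known to sit. RefSeq gave promoters for 5 of the 8 factors, the fifth being HNF4A. Each run is the 100 bases up to the base before the annotated start, 5′ to 3′ on the plus strand of GRCh38.p14, with matches to the motif CCAAT on either strand (CCAAT or ATTGG) in capitals. The windows are chr18:22169489-22169588 for GATA6, chr6:21593651-21593750 for SOX4, chr13:73058905-73059004 for KLF5 (the second of its 2 starts) and chr3:181711825-181711924 for SOX2.
GATA6: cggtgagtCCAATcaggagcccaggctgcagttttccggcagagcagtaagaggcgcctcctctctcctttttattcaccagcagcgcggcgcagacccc
SOX4: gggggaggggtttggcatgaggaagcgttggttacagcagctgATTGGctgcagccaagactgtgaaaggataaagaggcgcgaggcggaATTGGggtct
KLF5: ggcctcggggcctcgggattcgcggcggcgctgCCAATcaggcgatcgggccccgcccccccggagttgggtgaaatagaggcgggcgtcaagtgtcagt
SOX2: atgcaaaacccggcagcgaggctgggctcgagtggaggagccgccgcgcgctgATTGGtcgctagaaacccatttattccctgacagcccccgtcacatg

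These 4 are the windows with a match (SOX4 holds 2 matches) among the 7 starts that RefSeq gave for the 5 factors. The other 3, the first start of KLF5 and both of HNF4A, hold CCAAT on neither strand, and 18.1% of the 35116 RefSeq promoters hold it within their own 100 bases. The windows of GATA6 and SOX4 hold 61.0% and 57.0% G or C, with 6 and 4 CG pairs, and those of KLF5 and SOX2 hold 71.0% and 62.0% with 12 and 9. The median over all promoters was 60.0% with 5 CG pairs. CCAAT and other motifs were also sought from 250 bases before to 50 bases after each start. CCAAT was then held by 5 of the 7 starts, against 34.6% of all promoters. GGGCGG was held by 4 of 7 against 45%, and GATAA by 3 against 22.7%. ACAAAG was held by 1 against 16.1%, and TGTTTAC by 0 against 3.42%. CCAAT is thus shown as 1 motif out of several sought, and these letters alone name no bound factor.

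Among 46 other transcription factors of pancreas and gut, 22 had values and 21 were tested. Of the 21, 3 were higher, 5 were lower and 13 did not pass, with a median log2 fold change of -0.15. Those called made up 38.1%, against 28.4% of all genes tested. Besides the GATA genes, NKX6-2, a homeodomain factor related to the beta cell factor NKX6-1, had 423 and 466 normalized counts in PANC-1 and 159 and 129 in PZT-2 (log2 -1.63 ± 0.13, adjusted p = 0.000595). MAFA, an activator of the insulin gene, had 34.9 and 43.4 against 10.1 and 14.8 (log2 -1.65 ± 0.36, adjusted p = 0.0174), and lost its call without PZT-2 replicate 1 (0.0851) or 2 (0.0518) and with DESeq2 (0.0571). Both were lower in each PZT-2 library than in either PANC-1 library.

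HES1, the Notch target that holds pancreatic progenitors back from differentiation, was higher with 304 and 279 against 454 and 462 (log2 0.65 ± 0.091, adjusted p = 0.00359), and lies on chromosome 3. MEIS2, a homeodomain partner of PBX and PDX1 proteins, was higher with 82.1 and 56.9 against 180.2 and 118 (log2 1.11 ± 0.27, adjusted p = 0.0251), which it lost without PZT-2 replicate 1 (0.125). PTF1A, NKX6-1, NEUROG3, NEUROD1, PAX6 and NR5A2 were among the 24 with no values, so the factors of acinar and endocrine fates were mostly not seen in either line.

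Genes used to describe the classical subtype of PDAC, with which GATA6 and HNF4A are associated, had values for 4 of 24, and 3 were tested. AGR2, a secretory pathway disulfide isomerase, fell from 558 and 586 normalized counts in PANC-1 to 148 and 167 in PZT-2 (log2 -1.86 ± 0.10, adjusted p = 0.000206). The other 2 did not pass. Of 25 genes of the basal-like subtype, 8 were tested, with 2 higher and 2 lower (50% called, against 28.4% of all genes tested). CTSV, a cathepsin, was higher with 135 and 146 against 455 and 475 (log2 1.72 ± 0.10, adjusted p = 0.000245), as was SLC2A1, the glucose transporter GLUT1, with 737 and 758 against 1207 and 1246 (log2 0.71 ± 0.064, adjusted p = 0.000850). TNS4 and FGFBP1 were lower (adjusted p = 0.0356 and 0.0237), and neither held. TNS4 lost its call without any 1 of the 4 libraries (0.0509 to 0.138) and FGFBP1 without PZT-2 replicate 1 (0.0924) or 2 (0.103). The called genes of the basal-like list thus went in both directions.

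Most of the ductal markers that were called went the other way from SOX9. Of 8 ductal markers tested, KRT8, KRT18, KRT19 and MUC1 were lower, ANXA4 was higher and 3 did not pass. The share called was 62.5%, against 28.4% of all genes tested. MUC1 lost its call without PZT-2 replicate 2 (adjusted p = 0.129), and ANXA4 without PANC-1 replicate 1 (0.0522), PZT-2 replicate 1 (0.139) or 2 (0.256) and with DESeq2 (0.0953). The summed level of the list was 7380.1 and 7533 TPM in PANC-1 and 4199 and 4108 TPM in PZT-2. KRT19, the keratin of ducts, had 22353 and 23050.3 normalized counts in PANC-1 and 13894 and 13538 in PZT-2 (log2 -0.73 ± 0.043, adjusted p = 0.000245), the direction opposite to that of SOX9. Of the fibroblast markers 4 of 9 had values and 2 were lower, VIM and COL1A1 (log2 -0.48 ± 0.032 and -1.75 ± 0.13). The summed level of this list was 6409 and 6512 TPM in PANC-1 and 4882 and 4748 TPM in PZT-2. VIM made up nearly all of it, with 6396 and 6497 TPM in PANC-1 and 4875 and 4742 TPM in PZT-2. COL1A2, COL3A1, DCN, LUM and PDGFRA had no values. Of the leukocyte markers 3 of 5 had values, at 118 to 131 TPM in sum, nearly all of it from CD68 (117 to 130 TPM). PTPRC and CD3E had no values. CD14 had 3.38 and 0 normalized counts in PANC-1 and 16.1 and 31.6 in PZT-2. The part of these markers in the changes of the factors was not tested.

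The genes on either side of GATA6 on chromosome 18 fell in part, and by much less. Of its 10 tested neighbours 4 were lower and none higher, with a median log2 fold change of -0.26. Over the 220 tested genes of the chromosome the median was 0.10, with 9.55% lower and 21.4% higher. The first gene after it, RBBP8, which codes for the DNA end resection factor CtIP, went from 520.3 ± 30.9 to 332 ± 26.7 normalized counts (log2 -0.65 ± 0.098, adjusted p = 0.00482). CABLES1, a cyclin-dependent kinase substrate and the gene after that, went from 1644 ± 50.3 to 788 ± 16.3 (log2 -1.06 ± 0.063, adjusted p = 0.000245). Both were named after their values were seen, and the order of genes is that of GRCh38.p14.

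Genes whose pattern over the 4 libraries was most like that of a factor were sought among those with a mean of at least 100 normalized counts, 10052 in all, by the Euclidean distance of centred log2 values. For GATA6 the nearest were RRAGD (distance 0.64), FADS2 (0.76) and GLUL (0.84), with log2 fold changes of -3.31, -3.80 and -3.51. These distances cannot tell whether a well counted gene shares the GATA6 pattern, since GATA6 had 6 and 1 estimated counts in the PZT-2 libraries. The limit of 100 also left out GATA3 and KLF12, which fell about as far as GATA6. For FOXA2 the nearest were AP5B1, UCHL3 and C6orf62, at distances of 0.0047 to 0.022. For SOX4 they were MRPL24, ENOX2 and SLC25A43, at 0.0095 to 0.021, for SOX9 CRTC3, ASCC1 and ZNF592, at 0.0092 to 0.022, and for PDX1 MAN2A1, SMC6 and PPIG, at 0.0090 to 0.022. The distances are a description of these libraries.

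When the test was run for each transcript in place of each gene, none of the 7 listed transcripts of the 6 factors passed in edgeR, where 0.148% of 30403 transcripts did and 5615 had an unadjusted p under 0.05. The adjusted p was 0.0785 for SOX4, 0.117 for FOXA2, 0.168 for GATA6 and 0.193 for SOX9. With DESeq2, which called 14.5% of the transcripts, these 4 passed, with adjusted p = 1.7e-05 for SOX4, 0.00671 for FOXA2, 0.00181 for GATA6 and 0.0205 for SOX9, in the same directions. Whether the 4 pass for each transcript thus depended on the tool.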

How the data were processed

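The authors sequenced mRNA (stranded TruSeq libraries) of 2 PANC-1 and 2 PZT-2 samples and, per the submitters' processing notes, used Trim Galore 0.4.1, kallisto 0.43.0, sleuth 0.29.0 and build hg19. They deposited estimated counts, TPM and effective lengths of each transcript and library, and a table of fold effects, p and q values of their own comparison, of which the gene symbols alone were used. The deposited estimated counts had been scaled by a factor for each library, which was undone here. Among low values of genes with 1 transcript, 41.1 to 42.3% were then whole within 0.01, against 0.916 to 2.39% as deposited. They were rounded and added up for each gene. Unnamed transcripts held 0.0466% of the counts. TPM were rescaled to the same sum in each library.

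Genes with at least 5 counts in 2 libraries entered a quasi-likelihood test in edgeR 4.0.16 under R 4.3.3, with TMM scaling, Benjamini-Hochberg adjustment over all 15100 genes and a threshold of 0.05. The script was tested on simulated data with few genes changed, 200 of 14841. There 29 of 202 calls were false, a share above the threshold, so calls with an adjusted p near 0.05 are weak. Alternatives used DESeq2 1.42.0 and limma 3.58.1. The members and lists were chosen with earlier results of these data known. Named are the 8 factors, the 2 targeted genes, at most 6 called genes of each list with a mean of at least 20 normalized counts, noncoding genes beside the factors and the 3 genes most alike, and other genes were named after their values were seen. The labels number the samples of each line but name no separate cultures, so p-values measure the spread between these libraries. An exact permutation test of 2 against 2 cannot go below p = 0.333 and was not used. Results for some other genes of the lists are not reported here.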

Additional observations from a re-analysis of the deposited data

How the results depend on the processing

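The 4 calls among the 8 factors held under RLE size factors, DESeq2, no filter on low counts, limma-trend on log2 TPM with a pseudocount of 1 or 0.1, the deposited counts and the version 4 fit of edgeR, an alternative chosen after seeing the data. With at least 10 counts in all 4 libraries 3 were called, since GATA6 and KLF5 were not tested. With a minimum change of 2-fold, GATA6 was the 1 factor called, among 837 genes in place of 4290. Without 1 library, 2 to 4 factors and 1866 to 4692 genes were called, with the fewest genes without PZT-2 replicate 2 (1866) and PZT-2 replicate 1 (2314), each of which left 2 factors, GATA6 and SOX4. For transcripts, the 45 calls became 4400 with DESeq2, which called 4 transcripts of the factors in place of 0, and 0 without any 1 library. The 6 factors kept their direction in each alternative that tested them. At low counts, PLUT ranged from log2 -0.056 (without PANC-1 replicate 1) to 0.72 when 1 library was left out, and the KLF5 transcript NM_001730 from -0.82 (without PANC-1 replicate 2) to 5.87, with -0.0083 without PZT-2 replicate 2. The causes were not tested.

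Deviations of same-numbered libraries from their group means had a correlation of -0.024 over the genes tested. With 2 libraries in each line the second pair mirrors the first and adds nothing. The value shows no signal shared by number, and the labels do not say whether the numbers pair the samples. With the replicate number as a block, 3706 genes and the same number of factors, 4, were called, and 0 transcripts. SOX9-AS1 (adjusted p = 0.0537), SERPINA1 (0.0679), ANXA4 (0.0685), CD14 (0.0506) and TNS4 (0.0729) lost their calls under this block. Depth limits GATA6 and KLF5, with 7 and 15 counts over both PZT-2 libraries, and nothing is known here of the level of HNF4A and SOX2 below the listing.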
